A study of Mus musculus with 12 samples.

Results

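The Ifit and Oas families are interferon-stimulated genes, and 10 of the 17365 genes in the count table belong to them here: Ifit1, Ifit1bl2, Ifit2, Ifit3 and Ifit3b, and Oas1a, Oas1b, Oas2, Oasl1 and Oasl2. They were picked by symbol, with earlier results of these data known. RNA-seq was performed on 12 libraries of mouse neural stem cells (NSCs) from the subventricular zone (SVZ) of mice aged 6 to 8 weeks, in 2 lines: ANS4, from the MF1 strain, and BL6, from C57BL/6. Each line was kept in its growth medium with EGF and FGF2 at 10 ng/ml each (EGF/FGF, proliferating NSCs), or was given for 3 days BMP4 at 10 ng/ml (BMP, dormant-like d-qNSCs) or BMP4 and FGF2 at 10 ng/ml each (BMP/FGF, primed p-qNSCs). Each condition held 4 libraries, 2 of each line, so a difference between lines is a difference between 2 cultures and not between strains. The study describes the 2 libraries of a line and condition as biological replicates. In tests between conditions, p-values measure the spread of libraries around a condition term and a line term. Differences in response between the lines add to that spread. In tests that compare the lines, p-values measure only the spread between the 2 libraries. RNA was taken from bulk cultures, in which more cells of a kind and more RNA per cell cannot be told apart.

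When a cell senses foreign or misplaced RNA it secretes type I interferon, which acts through the receptor IFNAR and the kinases JAK1 and TYK2. The kinases activate the complex ISGF3, of which IRF9 is a part and which binds interferon-stimulated response elements near the start sites of its target genes. IFIT proteins hold RNAs whose cap lacks the methyl marks of self RNA and bind the initiation factor eIF3, which restrains translation. OAS proteins bind double-stranded RNA and make oligoadenylates, a signal that leads to the cleavage of RNA in the cell. OASL proteins are related to them: mouse OASL2 keeps the enzyme activity, whereas OASL1 lacks it and restrains the translation of Irf7. In the brain both families are best known from antiviral defence, and many of their genes respond to interferon in neural cells.

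The 5 Ifit genes lie within 1 cluster on chromosome 19 (34550694 to 34650009, GRCm38, GENCODE vM21). Ifit2 lies at 34550694 to 34576419 on the plus strand, Ifit3 at 34583531 to 34588731 (+), Ifit3b at 34607970 to 34613401 (+), Ifit1bl2 at 34617049 to 34640743 on the minus strand and Ifit1 at 34640871 to 34650009 (+). The Oas genes lie in a pair of clusters on chromosome 5. Oasl2 (114896936 to 114912234) and Oasl1 (114923240 to 114937915), both on the plus strand, form one, and Oas2 (120730333 to 120749853, minus strand), Oas1b (120812635 to 120824163, plus strand) and Oas1a (120896256 to 120907521, minus strand) lie in the other. All are annotated as protein coding except Oas1b, a polymorphic pseudogene, which is truncated in C57BL/6 mice.

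The windows from 250 bases before to 50 bases after the RefSeq start sites (GRCm38.p6) were searched on both strands for GAAANNGAAA, the core letters of the interferon-stimulated response element, where N is any base. Windows were given for 8 of the 10 genes. Ifit1, Ifit1bl2, Ifit3, Ifit3b and Oas1a each had a window with 2 matches, which in Oas1a overlap. Of all 27025 genes with a window, 3.99% had 1 match or more, and of all 32817 windows 3.43% did. The share with 2 matches was not counted. The stretches with matches are shown because they are the part of these genes nearest to the interferon pathway; capitals mark each match, in the reading of the strand named. Ifit1 and Ifit1bl2 are transcribed away from each other, and the same 2 matches lie in the 127 bases between their starts. In Ifit1 these lie 104 to 95 and 85 to 76 bases before the RefSeq start, and in Ifit1bl2 70 to 61 and 51 to 42 bases before it.
Ifit1 and Ifit1bl2, chr19:34640744-34640870, plus strand: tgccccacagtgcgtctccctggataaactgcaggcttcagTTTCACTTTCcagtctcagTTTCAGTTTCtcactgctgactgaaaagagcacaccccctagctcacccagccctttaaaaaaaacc
Ifit3, chr19:34583359-34583458, plus strand: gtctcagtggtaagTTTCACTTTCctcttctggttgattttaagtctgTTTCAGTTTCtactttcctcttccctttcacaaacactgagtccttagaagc
Ifit3b, chr19:34607755-34607854, plus strand: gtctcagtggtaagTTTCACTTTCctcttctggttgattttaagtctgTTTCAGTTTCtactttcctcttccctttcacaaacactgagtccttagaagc
Oas1a, chr5:120907526-120907585, minus strand: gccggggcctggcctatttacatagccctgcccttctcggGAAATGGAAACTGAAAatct
The Ifit3 and Ifit3b stretches are identical at 100 of 100 bases, but in Ifit3b they lie 32 bases farther from the start. These letters were not in the windows of Ifit2, Oasl1 and Oasl2, nor in a second Ifit1bl2 window.

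**Figure D1:**
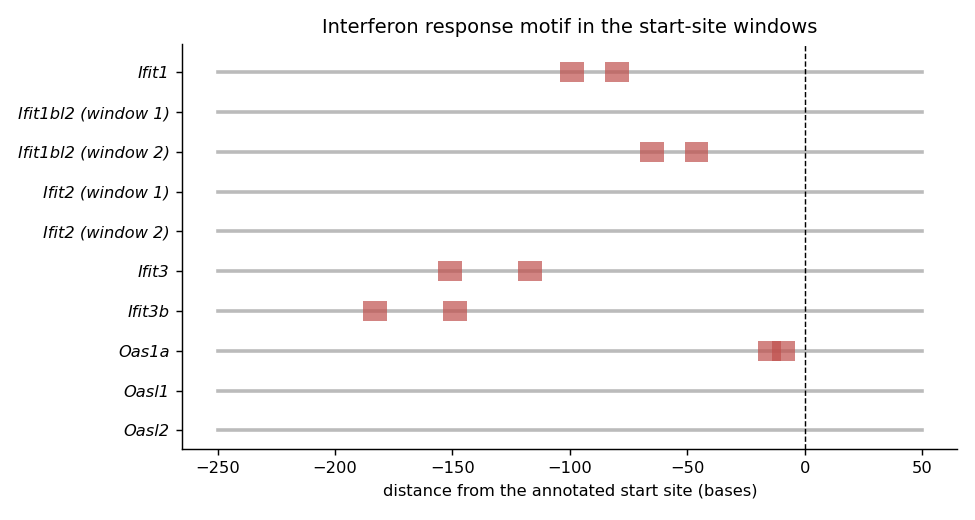
Matches (red boxes) in the windows of 8 genes, by distance from the annotated start site in bases (dashed line). Ifit1, 1 of 2 Ifit1bl2 windows, Ifit3, Ifit3b and Oas1a held 2 matches each, all before the start, and the grey windows of Ifit2, Oasl1 and Oasl2 held none.

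How far the estimates of single members can be trusted depends on how much sequence they share. Reads were assigned to transcripts by Kallisto, which splits a read that fits several. Of the distinct 31-base words of the Ifit3 transcripts, 61.8% also occur in Ifit3b, and 54.1% of those of Ifit3b in Ifit3. Their longest transcripts are identical at 98.0% of aligned bases. Of the Oas1a words, 68.7% occur in Oas1g, which is not analysed here. The Ifit1bl2 words were shared less, 12.3% with Ifit1bl1, and the Ifit1 words 9.2% with Ifit1bl2. Ifit2 and Oas2 shared none, Oasl1 0.4% and Oasl2 1.2%. The values of Ifit3, Ifit3b and Oas1a are therefore uncertain as values of single genes.

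Totals lay between 18069052 and 19451818 counts a library, so that 1 count equalled 0.0514 to 0.0553 CPM before scaling. CPM is the count divided by the library total, on the usual scale of that unit. All CPM values given for genes were also divided by a scaling factor of the library (0.972 to 1.03). Replicates of a group differed by more than sampling noise, with a chi-square per gene of 2.14 to 4.76 in 5 groups and 12.4 in BL6 BMP, the pair that stood farthest apart. The NSC markers were present: Sox2 had a mean of 475.8 CPM in EGF/FGF, 693 in BMP and 672 in BMP/FGF. Of the 8 listed, 6 were higher and 2 lower in BMP than in EGF/FGF, where 40.8% of all genes were higher and 38.8% lower. The 2 lower were Nes, at 569, 126 and 115 CPM in the same order, and Fabp7, at 2409, 475 and 1385 CPM. Markers of microglia, which respond strongly to interferon, had a summed level, over the 7 of 12 listed genes in the table, of 13.1 to 19.1 CPM in EGF/FGF. In BMP the sum was 5.81 to 7.56 CPM, and in BMP/FGF it was 9.49 to 12.015 CPM. Among these, Csf1r and Fcer1g were at 0 in BMP, Csf1r did not exceed 2 counts in any library and Tmem119 did not exceed 4. Itgam reached 245 counts, Cd68 87 and P2ry12 62. From BMP to BMP/FGF the log2 change was 0.69 ± 0.16 for Itgam, 1.09 ± 0.28 for Cd68 and 0.16 ± 0.27 for P2ry12 (SE). Itgam and Cd68 stood highest in EGF/FGF. The endothelial list (4 of 6 genes) summed to 39.1 to 47.1, 5.58 to 9.29 and 15.0 to 19.04 CPM, and the oligodendrocyte list (6 of 6) to 192 to 231, 635 to 673 and 706 to 730 CPM in the same order. The NSC list (8 of 8) summed to 7214 to 7820, 9433 to 10591 and 12386 to 12819 CPM. The oligodendrocyte and NSC lists thus stood highest where the Ifit genes did and the microglial and endothelial lists did not, and their part in the results was not tested.

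In EGF/FGF the families were at low to moderate levels, with a single gene at the top. Levels of different genes are compared here as CPM per kb of the longest transcript. Ifit2 stood first at 18.4 ± 1.24 CPM per kb (SD, n = 4), apart from all others. Ifit3 followed at 6.35 ± 4.40, Oasl2 at 2.93 ± 1.63, Ifit3b at 2.62 ± 1.85, Ifit1 at 2.35 ± 1.46 and Oasl1 at 1.22 ± 0.290, and neighbours in this run overlapped in range. Oas1b (0.225 ± 0.113), Ifit1bl2 (0.115 ± 0.0365), Oas1a (0.0480 ± 0.0468) and Oas2 (0.0392 ± 0.0106) came last, each overlapping the one before it except Oas1b.

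The order changed with treatment. In BMP, Ifit3 stood first at 55.5 ± 7.12 CPM per kb and overlapped Ifit2 (44.2 ± 4.92), and Ifit3b followed at 28.1 ± 2.24. In BMP/FGF, Ifit3 reached 190.6 ± 11.9 and Ifit3b 93.9 ± 5.78, whereas Ifit2 (51.7 ± 2.97), Oasl2 (39.6 ± 1.30) and Ifit1 (34.4 ± 1.32) followed without overlap. Ifit1bl2 (1.53 ± 0.0737), Oas1b (1.20 ± 0.292), Oasl1 (0.704 ± 0.126), Oas1a (0.361 ± 0.148) and Oas2 (0.287 ± 0.0477) remained low. In this group of 5, Oas1a and Oas2 overlapped. Most of the families' RNA thus came from Ifit1, Ifit2, Ifit3, Ifit3b and Oasl2, and the classical oligoadenylate synthetases Oas1a and Oas2 were rare in every condition.

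**Figure D2:**
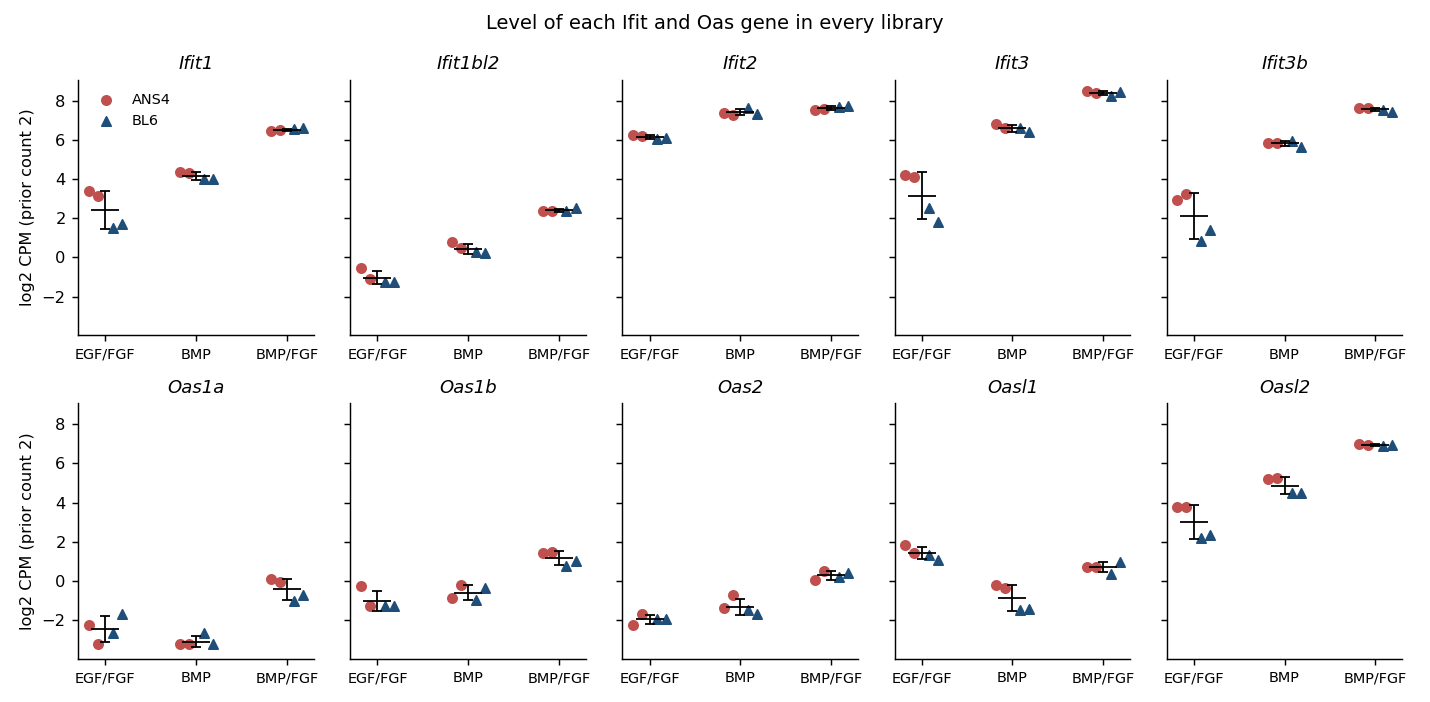
log2 CPM (prior count 2) of the 10 genes in every library, with ANS4 as circles, BL6 as triangles, and the mean and SD of the 4 libraries of a condition as a bar. Ifit3 had 3.41 to 18.2 CPM in EGF/FGF and 305 to 354 in BMP/FGF, while Oasl1 was highest in EGF/FGF (2.01 to 3.52 CPM).

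The make-up of each family differed accordingly. Of the summed Ifit level per kb, Ifit2 held 65.0 ± 15.4% in EGF/FGF (SD, n = 4), 32.8 ± 2.98% in BMP and 13.9 ± 1.09% in BMP/FGF. Ifit3 held 19.3 ± 9.21%, 41.1 ± 2.73% and 51.2 ± 1.66%, and Ifit3b 7.96 ± 3.94%, 20.9 ± 0.764% and 25.2 ± 1.47%. The Ifit sum itself was 29.8 ± 8.84 CPM per kb in EGF/FGF, 135 ± 11.4 in BMP and 372 ± 11.6 in BMP/FGF. Of the summed Oas level, Oasl2 held 62.6 ± 10.8% in EGF/FGF and 93.8 ± 0.790% and 94.0 ± 0.988% in BMP and BMP/FGF. Oasl1 held 29.7 ± 8.50%, 2.08 ± 0.630% and 1.67 ± 0.292%. The ranges of Ifit2 and of Oasl1 in EGF/FGF did not overlap those of the other conditions.

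**Figure D3:**
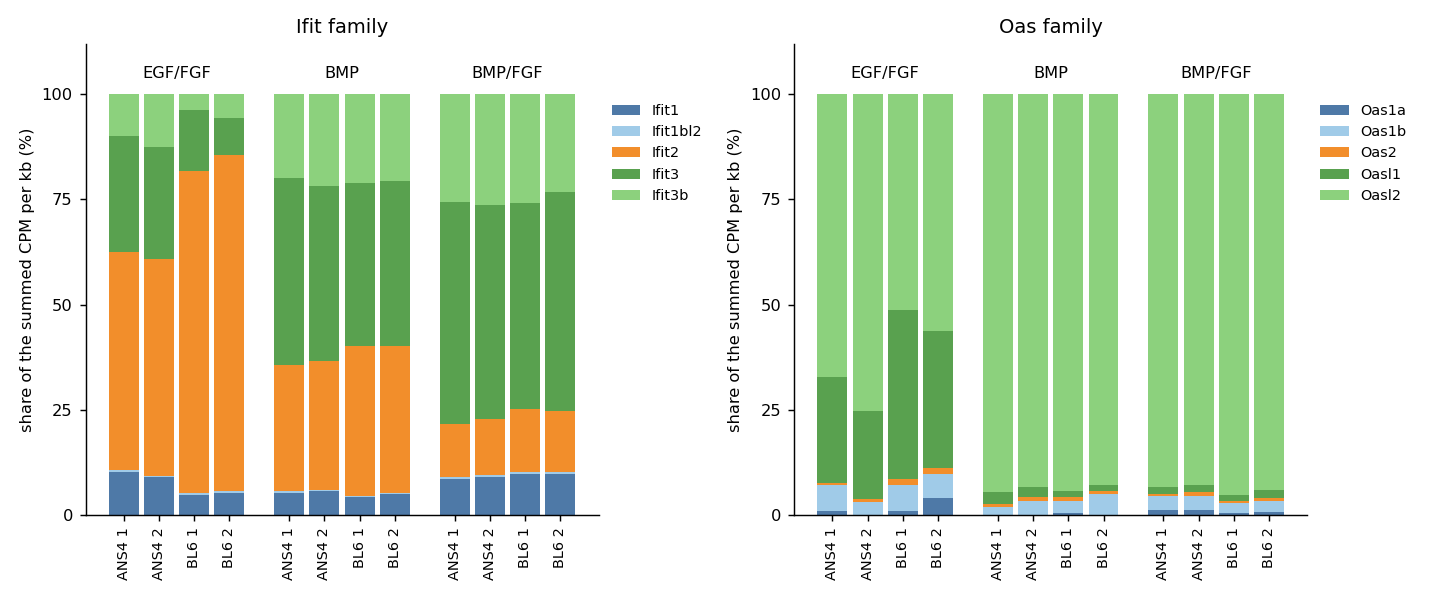
Share of each gene (%) in the summed CPM per kb of its family, 1 bar per library. Ifit2 made up 51.7 to 79.8% of the Ifit sum in EGF/FGF and 12.7 to 15.0% in BMP/FGF, and Oasl1 20.8 to 40.2% and 1.33 to 2.04% of the Oas sum.

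The central comparison asked what FGF2 adds to BMP4, that is, how p-qNSCs differ from d-qNSCs. All 9 genes tested rose from BMP to BMP/FGF (edgeR's quasi-likelihood test with Benjamini-Hochberg adjustment over 13312 genes, adjusted p under 0.05). Of all genes in the fit, 20.1% were higher and 21.3% lower. With a log2 fold change above 1.5 as well, 8 of the 9 were counted, against 0.901% of all genes. The median log2 fold change of the 9 was 1.86 and that of all genes -0.004. The study itself drew attention to interferon genes in these same libraries, Ifit1, Ifit3 and Oasl2 among them. It also named Irf7, Bst2, Ifi44, Mx2, Rsad2 and Usp18 of the lists used further on. The counts are therefore not independent evidence of a direction.

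Ifit1, the best studied cap-binding member, had 20.2 and 19.6 CPM in ANS4 BMP and 15.9 and 15.7 in BL6 BMP. In BMP/FGF it had 87.4 and 89.8 CPM in ANS4 and 92.5 and 95.5 in BL6. All BMP/FGF libraries stood far above all BMP libraries, and Ifit1 rose by 2.38 ± 0.19 on the log2 scale (SE), 5.21-fold, the largest rise of the 9 (edgeR, adjusted p = 5.2e-08).

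Ifit3, which stabilises the IFIT complexes, had 113 and 95.2 CPM in ANS4 BMP, 96.8 and 82.7 in BL6 BMP, 354 and 330 in ANS4 BMP/FGF and 305 and 341 in BL6 BMP/FGF. Its near copy Ifit3b had 57.7 and 56.6, 60.7 and 50.1, 197 and 197, and 184 and 173 CPM in the same order. Again no library of one condition reached the other. Ifit3 rose by 1.79 ± 0.22 (3.46-fold, edgeR adjusted p = 4.5e-06) and Ifit3b by 1.73 ± 0.19 (3.33-fold, adjusted p = 1.3e-06). Since reads may be split between them, their sum is the safer value: 153 ± 15.8 CPM in BMP and 520.4 ± 25.9 in BMP/FGF.

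Oasl2, the OAS-like enzyme, had 36.8 and 37.8 CPM in ANS4 BMP, 22.4 and 22.1 in BL6 BMP, 129 and 124 in ANS4 BMP/FGF and 120 and 121 in BL6 BMP/FGF. The conditions did not overlap, and in BMP both ANS4 libraries stood well above both BL6 libraries. Oasl2 rose by 2.12 ± 0.16 (4.33-fold, edgeR adjusted p = 3.0e-08). Ifit1bl2, an Ifit1-like gene, rose by 2.05 ± 0.18 from 20 to 29 counts a library in BMP to 90 to 99 counts in BMP/FGF (adjusted p = 1.1e-07).

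The rarer Oas genes rose as well, from few counts. Oas1b had 8 and 14 counts in ANS4 BMP and 8 and 13 in BL6 BMP, against 49 and 50, and 29 and 34, in BMP/FGF. It rose by 1.91 ± 0.26 (edgeR adjusted p = 1.8e-05). Oas2, the larger synthetase, had 4 to 9 counts in BMP and 17 to 25 in BMP/FGF and rose by 1.86 ± 0.31 (adjusted p = 1.4e-04). Oasl1 had 14 and 12 counts in ANS4 BMP, 5 and 5 in BL6 BMP and 21 to 33 in BMP/FGF, and rose by 1.67 ± 0.30 (adjusted p = 2.4e-04). For each of these genes every BMP/FGF library lay above every BMP library.

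Ifit2 was the exception in size. It had 166 and 152 CPM in ANS4 BMP, 196 and 161 in BL6 BMP, 186 and 190 in ANS4 BMP/FGF and 204 and 210 in BL6 BMP/FGF. The conditions overlapped through 1 library, BL6 BMP replicate 1 at 196 CPM, and the rise was 0.23 ± 0.07 (1.17-fold, edgeR adjusted p = 0.022). Leaving out ANS4 BMP replicate 2 (adjusted p = 0.079), BL6 BMP replicate 2 (0.063), BL6 BMP/FGF replicate 1 (0.059) or BL6 BMP/FGF replicate 2 (0.081) ended the call, as did BL6 alone (0.068) and scaling by library size only (0.063).

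Oas1a, a classical synthetase, did not pass the filter on low counts and was not tested with the others. It had 0, 0, 1 and 0 counts in the BMP libraries (ANS4 first), 2, 0, 1 and 4 in EGF/FGF, and 18, 16, 7 and 9 in BMP/FGF. The sums of 50 counts in BMP/FGF and 1 in BMP give a ratio of 49.6 with an exact 95% interval of 8.51 to 1999.7, which covers counting error only. Against the 7 counts of EGF/FGF the ratio was 7.43 (3.35 to 19.4). BMP/FGF libraries were highest without overlap, and the reads may in part belong to Oas1g.

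**Figure D4:**
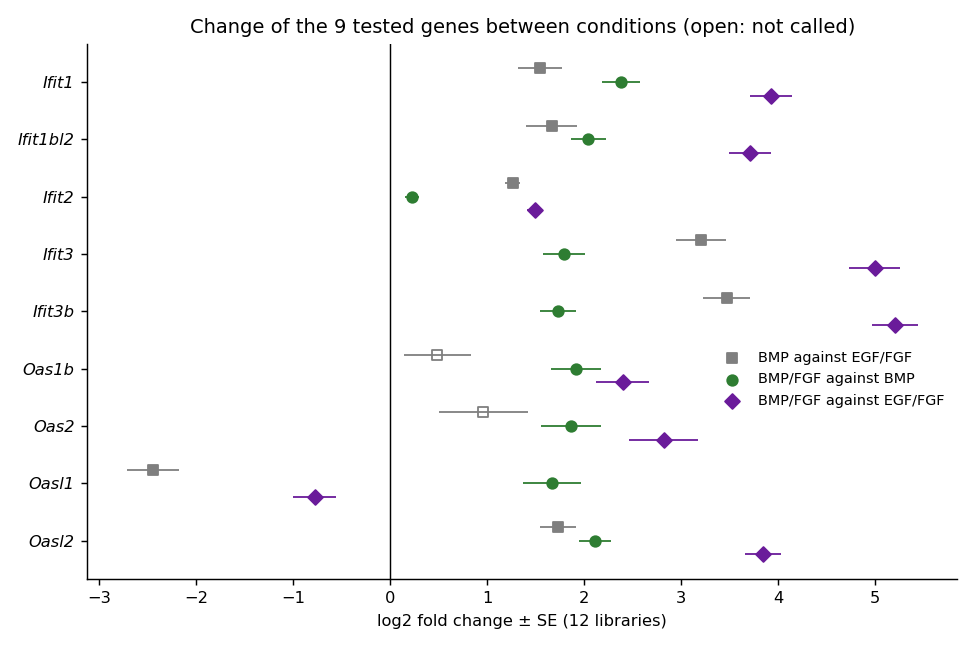
log2 fold change with SE of the 9 tested genes for BMP against EGF/FGF (squares), BMP/FGF against BMP (circles) and BMP/FGF against EGF/FGF (diamonds), from 12 libraries, with genes that were not called open. Oasl1 lies at -2.45 and -0.78 in the comparisons with EGF/FGF and at 1.67 in that of BMP/FGF with BMP.

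The next comparison set BMP against EGF/FGF. EGF and FGF2 were absent and BMP4 was present in BMP, so the effects of BMP4 and of losing the mitogens cannot be told apart. In BMP, 6 of the 9 genes were higher than in EGF/FGF and 1 was lower, where 40.8% of all genes were higher and 38.8% lower. All 5 Ifit genes rose. Ifit2 did so from 75.3 and 72.7 CPM in ANS4 EGF/FGF and 64.9 and 67.7 in BL6 EGF/FGF, the narrowest spread relative to the mean of any Ifit gene in that condition, and Ifit1bl2 from 6 to 11 counts a library. Ifit3b rose by 3.47 ± 0.24 (11.1-fold, edgeR adjusted p = 2.5e-10) and Ifit3 by 3.21 ± 0.25 (9.23-fold, adjusted p = 1.8e-09). Ifit1bl2 rose by 1.67 ± 0.26, Ifit1 by 1.55 ± 0.23 and Ifit2 by 1.26 ± 0.08, with adjusted p-values of 1.4e-05, 6.3e-06 and 4.8e-11. Of the Oas genes, Oasl2 rose by 1.73 ± 0.19 (adjusted p = 1.4e-07).

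Oasl1 went the other way. It had 68 and 51 counts in ANS4 EGF/FGF and 47 and 39 in BL6 EGF/FGF, against 14 and 12, and 5 and 5, in BMP. No BMP library reached the lowest EGF/FGF library, and Oasl1 fell by 2.45 on the log2 scale (SE 0.27, 5.45-fold lower, edgeR adjusted p = 1.7e-07). Oas1b (0.49 ± 0.34, adjusted p = 0.20) and Oas2 (0.96 ± 0.46, adjusted p = 0.063) were not called, although Oas2 was without BL6 BMP replicate 2 (adjusted p = 0.048) and Oas1b was with limma on rlog values (adjusted p = 0.047).

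In BMP/FGF against EGF/FGF, 8 of the 9 genes were higher and 1 was lower, where 40.9% of all genes were higher and 38.0% lower. The changes of the 9 had a median of 3.71, and that of all genes was 0.022. Ifit3b rose by 5.20 ± 0.24 (36.9-fold), Ifit3 by 5.00 ± 0.26 (31.9-fold), Ifit1 by 3.93 ± 0.22 (15.2-fold), Oasl2 by 3.85 ± 0.19 (14.4-fold) and Ifit1bl2 by 3.71 ± 0.21 (13.1-fold). Oas2 rose by 2.82 ± 0.35 (7.07-fold), Oas1b 5.27-fold and Ifit2 by 1.49 ± 0.08 (2.81-fold). Oasl1 fell by 0.78 on the log2 scale (SE 0.22, edgeR adjusted p = 0.0039), at 21 to 33 counts against 39 to 68. With the BL6 libraries alone this last call was lost (adjusted p = 0.093).

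These comparisons share their libraries, so their values for a gene are set side by side only as a description. BMP and BMP/FGF were parallel treatments, not steps in time. Of the log2 difference between BMP/FGF and EGF/FGF, that between BMP and EGF/FGF was 84.8% for Ifit2, 66.7% for Ifit3b and 64.2% for Ifit3. It was 45.0% for Oasl2, 44.9% for Ifit1bl2, 39.4% for Ifit1, 34% for Oas2 and 20.2% for Oas1b. Ifit2 in BMP thus lay closest to its level in BMP/FGF, Oas1b in BMP lay nearer to EGF/FGF, and Oasl1 was lowest in BMP. The level of Ifit3 relative to Ifit2, per length, was 0.336 ± 0.218 in EGF/FGF, 1.265 ± 0.196 in BMP and 3.70 ± 0.378 in BMP/FGF (SD, n = 4). The Ifit1 to Ifit1bl2 ratio across their shared upstream stretch was 19.4 ± 9.23, 18.3 ± 1.58 and 22.5 ± 0.695, and the Ifit3 to Ifit3b ratio 2.57 ± 0.975, 1.97 ± 0.185 and 2.03 ± 0.165. For Ifit3 and Ifit3b the ranges of all 3 conditions overlapped, whereas the Ifit1 to Ifit1bl2 ratio was higher in every BMP/FGF library than in any BMP library.

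The 2 lines started from different levels. In EGF/FGF, Ifit1 had 10.3 and 8.78 CPM in ANS4 but 2.76 and 3.10 in BL6, and Oasl2 had 13.5 and 13.7 against 4.47 and 5.01. Ifit3 had 18.2 and 17.2 CPM in ANS4 against 5.57 and 3.41 in BL6, and Ifit3b 7.61 and 9.14 against 1.66 and 2.53. For these 4 genes every ANS4 library stood well above every BL6 library. The log2 difference of BL6 over ANS4 was -1.99 ± 0.19 for Ifit3b, -1.98 ± 0.17 for Ifit3, -1.71 ± 0.14 for Ifit1 and -1.52 ± 0.11 for Oasl2 (edgeR, adjusted p of 5.3e-06, 2.2e-06, 7.8e-07 and 2.5e-07). These 4 of 9 genes were called, against 6.75% of all genes, and none was higher in BL6. Ifit2 was not called (-0.16 ± 0.08, adjusted p = 0.27), nor were Ifit1bl2, Oas1b, Oas2 and Oasl1, which lay at 6 to 14, 6 to 14, 2 to 4 and 39 to 68 counts in this condition.

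Within BMP, Ifit1 (-0.33 ± 0.09, edgeR adjusted p = 0.015), Oasl2 (-0.75 ± 0.08, adjusted p = 3.1e-06) and Oasl1 (-1.44 ± 0.50, adjusted p = 0.046) were lower in BL6, 3 of 9 genes against 23.0% of all genes. The Oasl1 call held in 6 of 17 alternatives, and those of Ifit1 and Oasl1 were both lost without ANS4 BMP replicate 1 (adjusted p of 0.075 and 0.17) or replicate 2 (0.051 and 0.098). Ifit3 (-0.21 ± 0.11) and Ifit3b (-0.045 ± 0.09) were not called. Without BL6 BMP replicate 1 Ifit3 was lower in BL6 (adjusted p = 0.030), and without BL6 BMP replicate 2 Ifit2 was higher there (adjusted p = 0.0030).

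In BMP/FGF no gene of the families was called between the lines. Values ran from -0.60 ± 0.28 for Oas1b to 0.14 ± 0.08 for Ifit2, with 0 of 9 at an unadjusted p under 0.05 in edgeR and 0 called by DESeq2 or limma. Across all genes 0.736% were called in this condition. Ifit1 had a mean of 88.6 CPM in ANS4 and 94.0 in BL6, Ifit3 342 and 323, Ifit3b 197 and 179 and Oasl2 127 and 121.

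**Figure D5:**
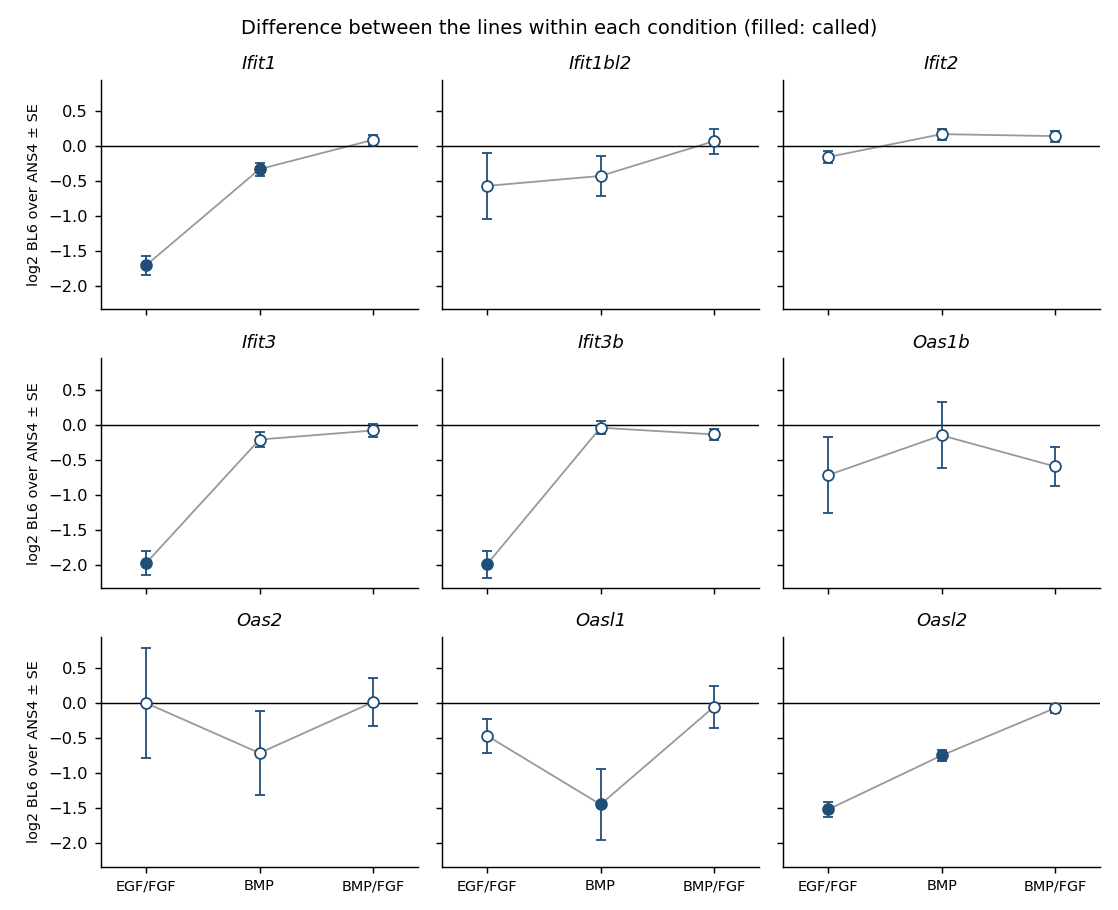
log2 difference of BL6 over ANS4 with SE for the 9 tested genes within each condition (2 libraries a line), filled where called. Ifit1, Ifit3, Ifit3b and Oasl2 lie between -1.99 and -1.52 in EGF/FGF and between -0.14 and 0.09 in BMP/FGF.

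The change itself therefore differed between the lines for some genes, which was tested as an interaction. From EGF/FGF to BMP, the log2 rise was larger in BL6 by 1.95 ± 0.22 for Ifit3b, 1.76 ± 0.21 for Ifit3, 1.37 ± 0.17 for Ifit1 and 0.77 ± 0.13 for Oasl2 (edgeR, adjusted p of 3.8e-05, 6.0e-05, 8.6e-05 and 0.0018), 4 of 9 genes against 9.02% of all genes. From EGF/FGF to BMP/FGF the same 4 genes differed, by 1.89 ± 0.20 for Ifit3, 1.85 ± 0.21 for Ifit3b, 1.79 ± 0.16 for Ifit1 and 1.45 ± 0.13 for Oasl2, against 4.98% of all genes. In BL6 alone, Ifit3b was 84.0-fold and Ifit3 71.2-fold higher in BMP/FGF than in EGF/FGF, and in ANS4 alone 23.5-fold and 19.3-fold. From BMP to BMP/FGF, Oasl2 (0.68 ± 0.10, adjusted p = 3.9e-04) and Ifit1 (0.42 ± 0.12, adjusted p = 0.026) rose more in BL6, 2 of 9 genes against 13.5% of all genes. The Ifit1 call was lost without either ANS4 BMP library (adjusted p of 0.074 and 0.057), either ANS4 BMP/FGF library (0.083 and 0.068) or either BL6 BMP/FGF library (0.057 and 0.091). Ifit2, without BL6 BMP replicate 2, gained a line difference from EGF/FGF to BMP (0.46, adjusted p = 0.0026) and, without either BL6 BMP library (adjusted p = 0.024) or with only the 8 libraries compared (adjusted p = 0.014), from EGF/FGF to BMP/FGF.

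Around the families, 6 of 10 transducers of the interferon signal rose from BMP to BMP/FGF and none fell, where 20.1% of all genes were higher and 21.3% lower. DESeq2 called 4 of the 10 and limma on rlog values 5. Irf7, a factor that drives interferon genes and the target of OASL1, rose by 1.94 ± 0.20 (edgeR adjusted p = 6.7e-07) and Irf9 by 1.00 ± 0.11 (adjusted p = 2.1e-06). Of all 10, the median was 0.24. In BMP against EGF/FGF, 5 were higher and 4 lower, close to the 40.8% and 38.8% of all genes. Of the 10, 4 were lower in BL6 in EGF/FGF, where 6.75% of all genes differed. In BMP/FGF 0 differed (2 at an unadjusted p under 0.05, and 0 by DESeq2 or limma), where 0.736% of all genes did. Of the ligand genes, Ifnz had 71 counts over all 12 libraries and Ifnk 2, and the other genes listed are not analysed here.

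All 12 of the other interferon-stimulated effectors listed rose from BMP to BMP/FGF, 9 of them by a log2 fold change above 1.5, with a median of 2.00. Among the 12, Bst2, Ifi44, Mx2, Rsad2 and Usp18 had been named by the study from these same libraries, so this count is not independent evidence either. Of all genes, 20.1% were higher and 0.901% were higher by more than 1.5. Mx1, a dynamin-like antiviral GTPase, rose by 3.07 ± 0.48 (edgeR adjusted p = 7.0e-05), Ifi44 by 2.81 ± 0.19 (adjusted p = 7.1e-09) and Usp18, which removes ISG15 and dampens the receptor, by 2.56 ± 0.20 (adjusted p = 3.0e-08). In BMP against EGF/FGF 8 of 12 were higher, where 40.8% of all genes were. They rose by at most 1.29, below the values of the Ifit3 pair. The lines differed in 8 of 12 within EGF/FGF, all lower in BL6, where 6.75% of all genes differed. Within BMP/FGF they differed in 0 of 12 (1 at an unadjusted p under 0.05, and 0 by DESeq2 or limma), where 0.736% of all genes differed.

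Of 8 sensors of foreign RNA and DNA that were tested, 6 rose from BMP to BMP/FGF, where 20.1% of all genes were higher. Their median was 0.70. Dhx58, an RNA helicase of this group, rose by 1.96 ± 0.21 (edgeR adjusted p = 1.5e-06), Ifih1, which senses long double-stranded RNA, by 1.21 ± 0.10 (adjusted p = 6.9e-08) and the kinase Eif2ak2 by 0.99 ± 0.09 (adjusted p = 2.5e-07).

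Of the genes that act after or against the OAS enzymes, Abce1, a ribosome recycling factor, fell by 1.21 in BMP (SE 0.06) and rose by 0.19 ± 0.06 in BMP/FGF against BMP (edgeR adjusted p = 0.021). Pde12, which degrades oligoadenylates, fell by 0.64 in BMP (SE 0.08) and stood at 0.09 ± 0.08 in BMP/FGF against BMP (adjusted p = 0.37). Akap7, which also cleaves oligoadenylates, stood at -0.10 ± 0.07 and -0.08 ± 0.07. Of 5 genes of cap methylation and eIF3, 0 were called in BMP/FGF against BMP (1 at an unadjusted p under 0.05, and 0 by DESeq2 or limma). Of all genes, 20.1% were higher and 21.3% lower there. The values were -0.16 ± 0.11 for Cmtr2, 0.13 ± 0.06 for Eif3e and 0.11 ± 0.07 for Rnmt. In BMP against EGF/FGF, 1 of the 5 was higher and 3 were lower, where 40.8% of all genes were higher and 38.8% lower.

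Of the paralogs in the same clusters, 3 of 8 were in the table and 2 were tested. Oas1c had 18 to 29 counts in BMP and 57 to 76 in BMP/FGF and rose by 1.47 ± 0.20 (edgeR adjusted p = 1.6e-05). Ifit1bl1 rose by 2.59 ± 0.35 in BMP against EGF/FGF (adjusted p = 2.4e-06) and stood at 0.41 ± 0.23 in BMP/FGF against BMP (adjusted p = 0.17). Oas3, the longest synthetase, was not tested; its counts lay between 4 and 14 in all 12 libraries, and the conditions overlapped.

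Over the 12 libraries, the genes whose log2 CPM was most like the mean profile of the 5 Ifit genes were Hsdl2 (Pearson's r = 0.996), Nell2 (0.995), S100a13 (0.993), Parp14 (0.993), Cxcl10 (0.993) and Prxl2a (0.992). The mean profile of the 4 tested Oas genes was most like Sumf2 (0.986), Lgals9 (0.985), Ifi44 (0.984), Tex2 (0.983), Gbp4 (0.981) and Rsad2 (0.978). Of the single genes, Oas1b followed the Oas profile at 0.945, Oas2 at 0.920, Oasl2 at 0.875 and Oasl1 at 0.285, so that profile stands for Oasl1 poorly. These values describe libraries that share 3 conditions, and ranked by Spearman's rho 0 of the 6 names recur for Ifit and 1 for Oas.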

How the data were processed

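The authors trimmed reads with Trim Galore 0.5.0, estimated transcript levels on mm10 using kallisto 0.44.0, and added these up per gene. They deposited a table of estimated counts, in whole numbers, and a table of log2 values (rlog, DESeq2), used only as an alternative. The annotation release is not given in the sources used here. Since kallisto divides reads among similar transcripts, counts of near copies depend on each other.

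From the counts, edgeR 4.0.16 in R 4.3.3 kept 13312 genes by filterByExpr (4053 not), scaled by TMM (factors 0.972 to 1.03) and fitted all 12 libraries with condition and line (glmQLFit, glmQLFTest, two-sided, Benjamini-Hochberg over all tested genes). Differences between lines used 1 mean per line and condition. log2 CPM had a prior count of 2. Steps were tested on simulated data. Alternatives were DESeq2 1.42.0, limma 3.58.1 on rlog values, other scaling, no filter, no line term, a replicate block, fewer libraries and 1 line at a time. Positions and lengths came from GENCODE vM21. All 10 members are named, with the tested paralogs and genes acting on oligoadenylates, and the 3 largest changes in BMP/FGF against BMP of the other lists, apart from a few whose own values are not given here. Members and lists were chosen with earlier results of these data known. P-values measure the spread between these libraries. Intervals cover counting error only.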

Additional observations from a re-analysis of the deposited data

Results flagged for a closer look

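Between the lines, the size of the log2 change differed by an interaction test for 4 genes, in each case with the larger log2 rise in BL6. These genes had lower levels in BL6 in EGF/FGF, and a larger log2 rise need not be a larger rise in CPM. Ifit3, for example, had means of 17.7 CPM in ANS4 and 4.49 in BL6 in EGF/FGF, and 342 and 323 in BMP/FGF. From EGF/FGF to BMP the log2 difference was 1.37 for Ifit1, 1.76 for Ifit3, 1.95 for Ifit3b and 0.77 for Oasl2. From EGF/FGF to BMP/FGF it was 1.79 for Ifit1, 1.89 for Ifit3, 1.85 for Ifit3b and 1.45 for Oasl2. From BMP to BMP/FGF it was 0.42 for Ifit1 and 0.68 for Oasl2. For Ifit1, Ifit3, Ifit3b and Oasl2 the lines lay apart in EGF/FGF and were not called apart in BMP/FGF.

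In 3 of 30 groups of 4 libraries (10 genes in 3 conditions) the gap of a single library to the nearest other was large relative to the range of its group on the log2 scale. Chance picks out about 1 in 20 groups of 4 like libraries in this way, whereas the groups here mix 2 lines. They were Ifit1bl2 in BL6 BMP/FGF replicate 2, at 5.53 CPM, Oas1b in ANS4 EGF/FGF replicate 1, at 0.724 CPM, and Oas1a in BL6 BMP replicate 1, at 0.0518 CPM. For Oas1b this is 14 counts where the other EGF/FGF libraries have 6 each. For Oas1a it is 1 count where the other BMP libraries have 0. In both, the equal counts fix the outcome, and that chance rate does not hold for them. For Ifit1bl2 the group ran only from 90 to 99 counts, a difference of the size of counting error.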

How the results depend on the processing

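The direction of the 7 genes called in BMP against EGF/FGF and of the 9 in both other comparisons held under every alternative run. The count of higher genes in BMP/FGF against BMP lay between 8 and 10. With BL6 alone, 0 genes in place of 1 fell from EGF/FGF to BMP/FGF. The count of line differences from BMP to BMP/FGF was 1 in place of 2 with library size only and with limma on rlog values, and 1 to 2 when a library was left out. The genes apart between lines within BMP numbered 1 to 3 when a library was left out. A replicate block left every count as it was (9 higher in BMP/FGF against BMP, 6 higher and 1 lower in BMP against EGF/FGF), and the correlations of same-numbered libraries, -0.179 to 0.306, do not pair them. With the ANS4 BMP/FGF numbers crossed, chosen after seeing the data, these counts were again 9, 6 and 1. By CPM in place of CPM per kb, 6 of 10 genes kept their rank in EGF/FGF and 6 in BMP/FGF. Oas1a, Oas1b and Oas2 lay near the depth limit, where 3 counts equal about 0.154 to 0.166 CPM before scaling.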

Other observations

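Beyond the families, the genes next to them on the chromosome were looked up after the data had been seen. Within 200 kb of the Ifit cluster 2 other genes were tested, Lipa, a lysosomal lipase, and Pank1, a pantothenate kinase. Both rose from BMP to BMP/FGF, by 0.25 ± 0.06 (edgeR adjusted p = 0.0024) and 0.18 ± 0.07 (adjusted p = 0.044), changes far below those of Ifit1 and Ifit3. Of 9 tested genes within 200 kb of the Oasl pair, 1 was higher and 3 were lower, and of 7 near the other Oas cluster 0 were higher and 3 lower, where 20.1% of all genes were higher and 21.3% lower. Among the last, the Notch modifier Dtx1 fell by 0.47 from BMP to BMP/FGF (SE 0.07, adjusted p = 4.9e-05).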
